A study of Mus musculus with 6 samples.

Results

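The interferon-inducible p200 family of the mouse is a set of neighbouring genes on chromosome 1, also called the Ifi200 or PYHIN genes. The members described here were chosen by symbol, as the 10 genes Ifi202b, Ifi203, Ifi204, Ifi205, Ifi206, Ifi207, Ifi208, Ifi209, Ifi213 and Mndal. The table of fragments per kilobase of transcript, scaled to sequencing depth (FPKM, a level per length of transcript) held 9 of them among its 24413 genes, and Ifi202b was not analysed here. Levels were compared on log2(FPKM + 1), and a gene was tested when it averaged at least 1 FPKM over the 6 libraries. That left 5 members, Ifi203, Ifi204, Ifi205, Ifi207 and Mndal, among 11678 genes tested.

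p200 proteins carry a HIN domain, which binds DNA or other proteins, and most of them also carry a pyrin domain, through which they join other pyrin-domain proteins. Their genes are classical targets of interferon. After interferon binds its receptor, the kinases JAK1 and TYK2 activate STAT proteins, which with IRF9 form a complex that binds interferon-stimulated response elements (ISREs) in promoters. The proteins are best known from macrophages and other immune cells for sensing DNA, and from several cell types for slowing growth and modulating differentiation.

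The cells came from Achilles tendons of 3 male mice of 12 weeks with the genotype Tppp3ECE/+;R26RtdT-CreERT2;ScxGFP, in which tdT marks cells of the Tppp3 lineage through CreERT2 and GFP reports Scx. They were sorted for tdT, and both groups share this genotype and sort. The conditioned group (3 libraries) spent 24 h in medium conditioned by dorsal root ganglia (DRG), the sensory ganglia beside the spinal cord, from 3 male C57BL/6J mice of 12 weeks. The control group (3 libraries) spent 24 h in medium with 1% FBS, the same serum level in which the conditioned medium was collected. The ganglia had earlier been grown with the antimitotic reagents 5-fluoro-2-deoxyuridine and uridine at 20 µM, so factors released by the ganglia, medium used up by them and carried-over reagent cannot be told apart.

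No label says which animal's cells went into which library, so the p-values reflect library-to-library spread, which may be technical in part. Between 18772891 and 26059058 fragments per library fell on the table's genes. Tppp3 itself read between 0.777 and 1.12 FPKM in the conditioned libraries and between 0.724 and 1.05 FPKM in the control libraries. Its means of 0.908 FPKM in the conditioned libraries and 0.903 FPKM in control were under the level at which genes were tested. Pdgfra, Scx and Col1a1 of the tendon lineage were above that level in every library. Of 9 tendon lineage markers tested, 6 fell and none rose, where 4.04% of all tested genes were called higher and 2.49% lower. Among these markers 1 was higher at an unadjusted p under 0.05 and 1 by voom. The leukocyte gene Ptprc stayed at or below 0.00930 FPKM in the conditioned libraries and 0.00271 FPKM in the control libraries, and the macrophage gene Adgre1 was at 0 in each conditioned library and at most 0.0353 FPKM in the control libraries. Over the 9 macrophage and leukocyte markers in the table, summed FPKM was 6.88 to 7.39 in the conditioned libraries and 7.17 to 8.48 in the control libraries.

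The stretch around the response element in the members' promoters is printed here because several members share more of it than the element itself. RefSeq promoters (GRCm38.p6), from 250 bases before to 50 bases after each start, were searched on both strands for an ISRE-type element, the letters GAAA, any 2 bases, and GAAA again. The table held an entry for 9 of the 10 members, Ifi204 being the one without. Some genes have several starts, each with an entry. An exact match was found in 8 of the members' 11 entries, belonging to 7 members, against 1131 of 32851 entries of all genes (3.44%). The stretches of 50 bases below are read 5′ to 3′ on the strand of the gene, with the match in capitals.
Mndal, chr1:173880194-173880243, minus strand: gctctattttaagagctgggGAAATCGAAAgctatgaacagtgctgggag
Ifi203, chr1:173942498-173942547, minus strand: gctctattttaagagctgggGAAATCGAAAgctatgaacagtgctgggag
Ifi207, chr1:173741821-173741870, minus strand: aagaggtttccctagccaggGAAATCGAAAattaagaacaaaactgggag
Ifi205, chr1:174031860-174031909, minus strand: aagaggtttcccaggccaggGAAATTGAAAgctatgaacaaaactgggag
Ifi206, chr1:173491329-173491378, minus strand: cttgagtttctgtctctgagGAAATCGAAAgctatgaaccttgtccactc
Ifi213, chr1:173599316-173599365, minus strand: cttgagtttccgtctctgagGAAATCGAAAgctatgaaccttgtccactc
Ifi208, chr1:173673587-173673636, plus strand: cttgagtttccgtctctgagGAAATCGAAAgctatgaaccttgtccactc
Ifi209, chr1:173630760-173630809, plus strand: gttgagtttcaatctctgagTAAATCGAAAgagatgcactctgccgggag

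The element began 35 bases before the start in Ifi203 (the downstream of its 2 RefSeq starts), 36 in Mndal (the upstream of its 2 RefSeq starts), 41 in Ifi207, 40 in Ifi206, 58 in Ifi208, 73 in Ifi213 and 134 in Ifi205. The gene span of Mndal given below is from another annotation, GENCODE, and reaches chr1:173942491, upstream of both its RefSeq starts. Ifi205 held a second match, on the opposite strand after the start, and the downstream start of Mndal had its own match 54 bases before it, also on the opposite strand. The stretch of Ifi209 is shown for contrast: its letters 79 bases before the start differ from the searched ones by G1T, counted from 1 at the 5′ end of the element. They are not the only letters that close in this promoter. Of equally close stretches, the one whose surroundings were most like those of an exact match in the family was shown, so its likeness to the other windows is partly by choice. The bases around the element fall into groups. Mndal and Ifi203 were the same at 50 of 50 bases, as were Ifi213 and Ifi208, and Ifi206 matched Ifi213 at 49 of 50. Ifi207 and Ifi205 matched at 44 of 50. A form of the STAT-binding GAS element, TTC, any 3 bases and GAA, occurred in the Ifi202b promoter alone among the members, and in 8.30% of promoters of all genes. A match of letters describes these windows and shows no binding.

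In tendon cells kept in DRG conditioned medium, Ifi204, Ifi203, Ifi207, Mndal and Ifi205 rose, by between 0.51 and 1.30 on the log2(FPKM + 1) scale, and no tested member fell. In bulk RNA, more cells expressing a gene and more of its RNA per cell cannot be told apart. Among the 11678 genes tested, limma with Benjamini-Hochberg adjustment at 0.05 called 6.53%, of which 4.04% of all were higher and 2.49% lower. The 5 members were called higher, but Ifi207 and Ifi205 reached the level for testing through the conditioned libraries alone, since both averaged under 1 FPKM in control. Without any filter on level, the same 5 of 9 members were called, against 1.34% of 24413 genes. The members' median difference was 1.16, that of all tested genes 0.01. In all 9 members the conditioned libraries lay above the control libraries without overlap, against 8.86% of the 24413 genes and 14.3% of those tested.

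**Figure D1:**
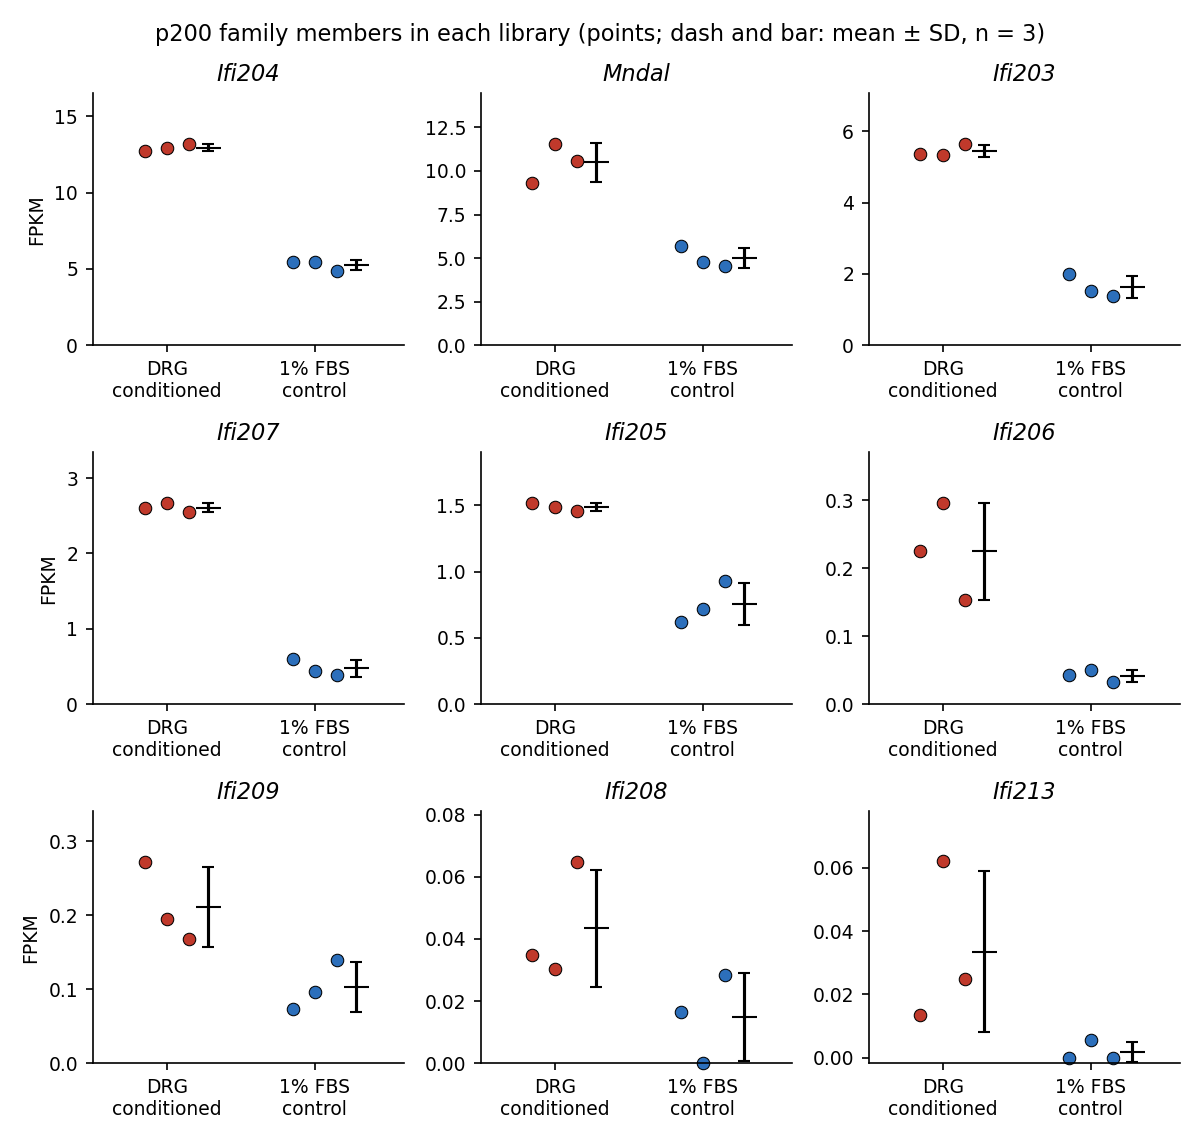
FPKM (vertical axes, each with its own range) of the 9 p200 members in 3 DRG conditioned libraries (red, left) and 3 control libraries (blue, right) of tendon cells, with the mean and SD as a dash and bar. In every panel the lowest conditioned library lies above the highest control library, by a wide margin for Ifi204 and a narrow one for Ifi209 and Ifi208.

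Ifi204 encodes p204, a pyrin and HIN protein implicated in DNA sensing in mouse macrophages and in the differentiation of muscle and bone precursors. It lies at chr1:173747293-173766943 on the minus strand (mm10, GENCODE M21). It read 12.7, 12.9 and 13.2 FPKM in the conditioned libraries, against 5.43, 5.47 and 4.85 FPKM in the control libraries. The 3 libraries of each group were nearly level with each other and far from the other group. The means were 12.9 ± 0.245 and 5.25 ± 0.350 FPKM (SD, n = 3 each), a ratio of 2.47. The log2 difference was 1.16 ± 0.05 (SE; limma adjusted p = 1.2e-05), higher in all 3 conditioned libraries. It rests on 984, 867 and 1103 fragments in the conditioned libraries and on 449, 511 and 348 in the control libraries.

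Mndal, a relative of human MNDA whose protein slows growth when overproduced in mouse fibroblasts, was close behind in level. Its annotated span, chr1:173849126-173942491 on the minus strand, contains Ifi211 and overlaps most of the span of Ifi203. It read 9.32, 11.6 and 10.6 FPKM in the conditioned libraries, against 5.67, 4.78 and 4.55 FPKM in the control libraries. Replicate 1 was the lowest of the conditioned libraries and replicate 1 the highest of the control libraries, and the groups did not overlap. Mean FPKM was 10.5 ± 1.12 in the conditioned libraries and 5.00 ± 0.593 in control (SD, n = 3 each), 2.10 times as high, with a log2 difference of 0.94 ± 0.09 (SE; limma adjusted p = 0.000819). Mndal shared 37 exonic bases with Ifi203 and 118 with Gm38050, on the same strand, in the annotation.

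Ifi203, which encodes the nuclear protein p203, had a log2 difference close to that of Ifi207 on log2(FPKM + 1), and a smaller one than Ifi207 with a pseudocount of 0.1 (1.69 against 2.25) and by voom (1.74 against 2.45). It lies at chr1:173920407-173942672 on the minus strand. Its levels were 5.37, 5.34 and 5.65 FPKM in the conditioned libraries and 1.99, 1.53 and 1.39 FPKM in the control libraries. Control replicate 1 stood above the other two control libraries and still far under any conditioned library. The group means of 5.45 ± 0.167 and 1.64 ± 0.314 FPKM (SD, n = 3 each) gave a ratio of 3.33 and a log2 difference of 1.30 ± 0.09 (SE; limma adjusted p = 9.19e-05).

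Ifi207, whose protein has been reported in mouse cells to stabilise the DNA sensing adaptor STING, showed the largest ratio of the tested members from a low control level. It lies at chr1:173723427-173741747 on the minus strand. It read 2.61, 2.67 and 2.55 FPKM in the conditioned libraries, against 0.604, 0.434 and 0.391 FPKM in the control libraries. The conditioned libraries were nearly level, and all control libraries were under 1 FPKM. Mean FPKM was 2.61 ± 0.0602 in the conditioned libraries and 0.477 ± 0.112 in control (SD, n = 3 each), 5.48 times as high. On log2(FPKM + 1), which compresses such low values, the difference was 1.29 ± 0.08 (SE; limma adjusted p = 6.31e-05). On recovered fragments (194, 172 and 205 conditioned, 48, 39 and 27 control), voom gave a log2 difference of 2.45 ± 0.21 (SE; limma adjusted p = 7.11e-08).

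Ifi205 encodes p205, reported in mouse macrophages to govern expression of the inflammasome adaptor Asc. It had the smallest log2 difference of the tested members on log2(FPKM + 1), which compresses such low values. By voom its difference was 1.00 ± 0.18, close to the 1.05 ± 0.09 of Mndal (SE). With a pseudocount of 0.1 the values were 0.909 for Ifi205 and 1.055 for Mndal. Ifi205 lies at chr1:174011998-174031810 on the minus strand, at the end of the cluster. Its FPKM was 1.52, 1.49 and 1.46 in the conditioned libraries, against 0.619, 0.721 and 0.926 in the control libraries. The groups were apart, with control replicate 3 closest to the conditioned libraries. The means of 1.49 ± 0.0303 and 0.755 ± 0.156 FPKM (SD, n = 3 each) gave a ratio of 1.97, and the log2 difference was 0.51 ± 0.09 (SE; limma adjusted p = 0.0134). The call was lost without conditioned replicate 1 (limma adjusted p = 0.0649), without conditioned replicate 2 (0.0657) and without control replicate 2 (0.0561), with log2 differences of 0.50, 0.51 and 0.50. Of 100-base stretches of its transcripts, 15.0% also occur in another gene, and all of these in Ifi211.

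**Figure D2:**
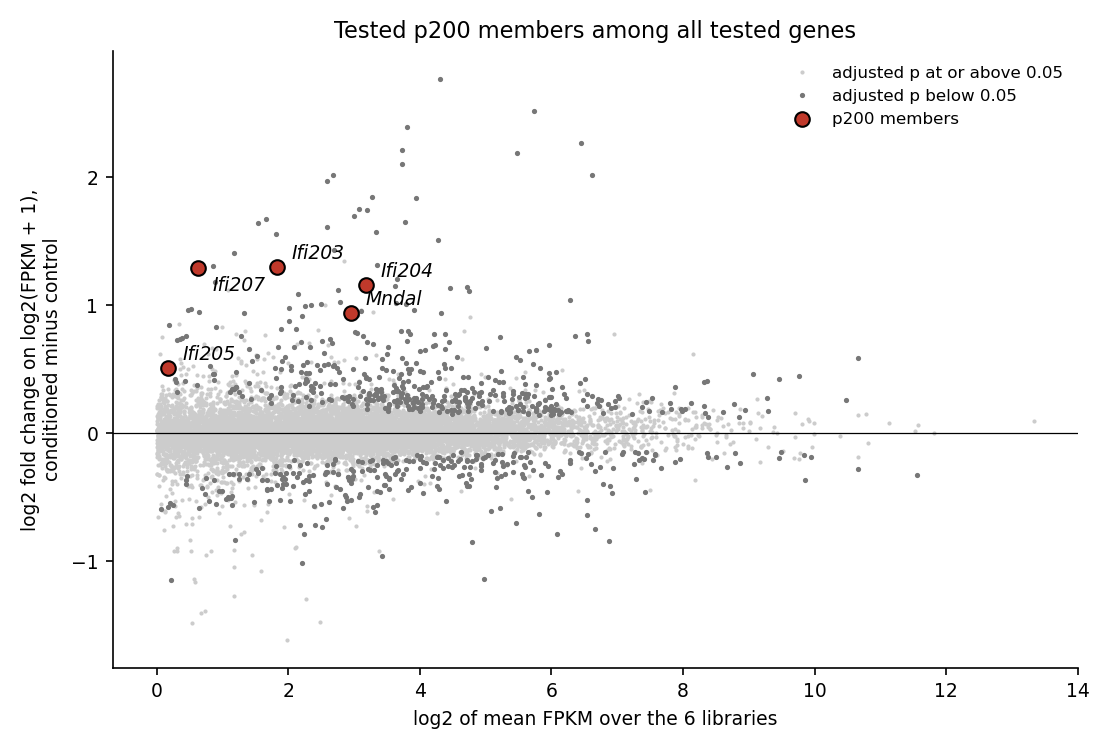
Log2 difference, conditioned minus control on log2(FPKM + 1) (vertical axis), against the log2 of mean FPKM over the 6 libraries (horizontal axis), for 11678 tested genes. The 5 tested p200 members (red) lie between 0.51 and 1.30, and Ifi203, Ifi207 and Ifi204 rank 28, 29 and 32 from the top.

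The 4 other members in the table stood under the level for testing, and their values come from few fragments. Ifi206 read 0.226, 0.296 and 0.153 FPKM in the conditioned libraries, against 0.0423, 0.0499 and 0.0325 FPKM in the control libraries, from 43 and 9 fragments in all. Each conditioned library was above every control library, and the depth-scaled ratio of fragments was 5.17 (exact binomial 95% interval 2.48 to 12.1, counting error only). With no filter on level, limma on log2(FPKM + 1) gave an adjusted p of 0.147. Voom on the recovered fragments, chosen after seeing the data, gave a log2 difference of 2.18 ± 0.63 (SE) and a limma adjusted p of 0.0238, where 2.80% of 24413 genes were called higher.

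Ifi209 read 0.272, 0.195 and 0.168 FPKM in the conditioned libraries, against 0.0728, 0.0967 and 0.140 FPKM in the control libraries. Conditioned replicate 3 and control replicate 3 were close to each other. The 48 conditioned and 25 control fragments gave a depth-scaled ratio of 2.08 (exact binomial 95% interval 1.26 to 3.51), and limma adjusted p was 0.439 without a filter and 0.340 by voom. Ifi208 rested on 15 conditioned and 5 control fragments, at 0.0350, 0.0303 and 0.0648 FPKM in the conditioned libraries and 0.0164, 0 and 0.0283 FPKM in the control libraries. Its ratio of 3.24 had an interval of 1.12 to 11.4, and limma adjusted p was 0.566 without a filter and 0.259 by voom. Ifi213 rested on 14 conditioned fragments and 1 control fragment, at 0.0134, 0.0622 and 0.0249 FPKM in the conditioned libraries and 0, 0.00557 and 0 FPKM in the control libraries. Its ratio of 15.1 had an interval of 2.30 to 639.9, and limma adjusted p was 0.498 without a filter and 0.0570 by voom. A count of 0 in a library allows up to 3 fragments. For Ifi208 and Ifi213 the counting intervals lie above 1 and are wide, and neither gene passed across libraries.

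Levels per length put the members in much the same order in both media. In the conditioned libraries Ifi204 was highest, then Mndal, Ifi203, Ifi207 and Ifi205, and no neighbours in that order overlapped. Below them, Ifi206 and Ifi209 overlapped each other, as did Ifi208 and Ifi213. In the control libraries Ifi204 and Mndal overlapped, Ifi203 followed, and Ifi205 stood above Ifi207, the highest Ifi207 library (0.604 FPKM) lying just under the lowest Ifi205 library (0.619 FPKM). Ifi209 came next there, apart from Ifi206 below it, and Ifi208 and Ifi213 overlapped at the bottom.

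The sum over the 9 members was 32.1, 34.6 and 33.9 FPKM in the conditioned libraries. In the control libraries it was 14.4, 13.1 and 12.3 FPKM. The mean of the sum was 33.5 ± 1.29 FPKM in the conditioned libraries and 13.3 ± 1.08 FPKM in control (SD, n = 3 each), a ratio of 2.52. This sum leaves out Ifi211 of the same family, which averaged 22.8 FPKM in the conditioned libraries and 13.9 FPKM in control. The ratio and the shares therefore hold for the 9 named members only. Ifi204 made up 38.7 ± 1.12% of the sum in the conditioned libraries and 39.6 ± 2.11% in control, and these shares overlapped. Mndal made up 31.3 ± 2.17% in the conditioned libraries and 37.6 ± 1.47% in control. Ifi203 had 16.3 ± 0.734% in the conditioned libraries and 12.3 ± 1.33% in control, and Ifi207 had 7.80 ± 0.301% in the conditioned libraries and 3.56 ± 0.542% in control (SD, n = 3 each), neither overlapping. The level of Ifi207 was 1.72, 1.79 and 1.75 times that of Ifi205 in the conditioned libraries, and 0.977, 0.603 and 0.423 times in the control libraries, so the order of this pair differed between the media. With 3 libraries against 3, an exact permutation test cannot go below p = 0.10, and no test was made on these shares.

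**Figure D3:**
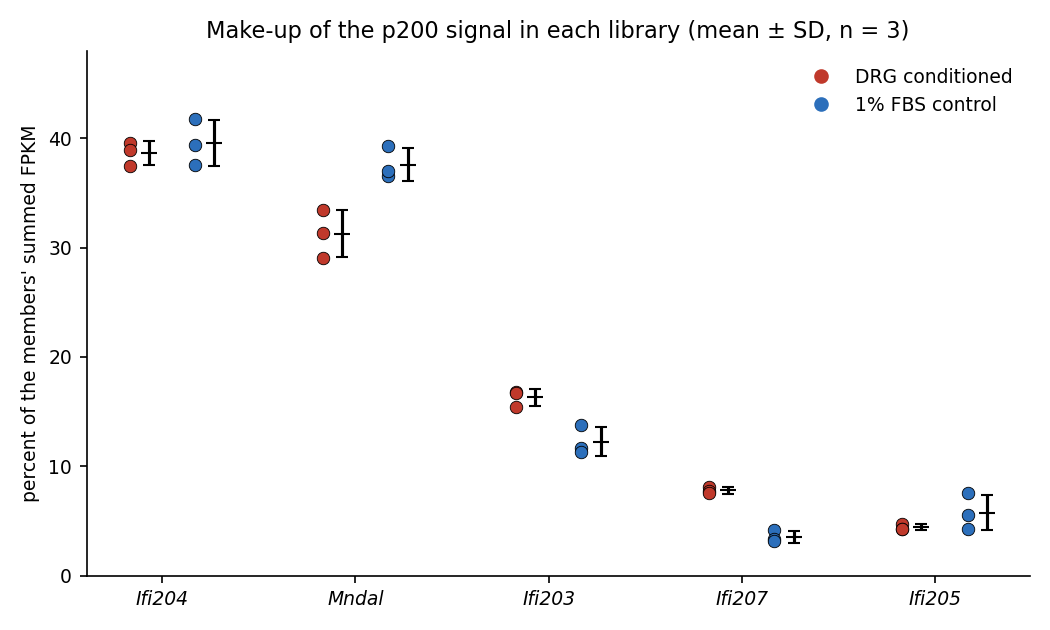
Percent of the members' summed FPKM (vertical axis) taken by the 5 highest members in 3 DRG conditioned libraries (red, left) and 3 control libraries (blue, right), with mean and SD as a dash and bar. Ifi207 and Ifi203 take a larger share in the conditioned libraries and Mndal a smaller one, while Ifi204 overlaps between the media at 38.7% and 39.6%.

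Along the chromosome, the members span chr1:173468485-174031810, about 563 kb with 20 annotated genes, of which 12 were in the table. Ifi211, a neighbour of the same family that is no member by name, was the highest gene of the cluster at 23.7, 22.8 and 21.9 FPKM in the conditioned libraries, against 12.8, 13.9 and 15.0 FPKM in the control libraries. It rose by a log2 difference of 0.68 ± 0.06 (SE; limma adjusted p = 0.000393), with no overlap, and its promoter holds the ISRE-type letters 37 bases before the start. Of the 100-base stretches of Ifi211 transcripts, 56.9% also occur in another gene, 37.2% in Ifi205 and 19.6% in Ifi204, so levels of these 3 genes depend on how such reads were counted, which the sources used here do not give. At 100 bases the share was 10.7% for Ifi204, 6.38% for Mndal, 2.84% for Ifi203 and 0.790% for Ifi207, and among the members under the level for testing 16.9% for Ifi209, 13.1% for Ifi206, 5.92% for Ifi208 and 3.30% for Ifi213. At 50 bases the shares were larger, with 20.0% for Ifi204, 19.6% for Mndal, 18.6% for Ifi205, 12.4% for Ifi203 and 7.29% for Ifi207, so the order depends on the length taken. The pseudogene Ifi203-ps read 0.791, 0.665 and 0.800 FPKM in the conditioned libraries and 0.270, 0.283 and 0.291 FPKM in the control libraries, without overlap, and was under the level for testing.

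Gm18752 was above 0 in conditioned replicate 3 alone. Aim2, the pyrin and HIN protein that forms an inflammasome on DNA, sits beside the members and read 0.0394, 0.0607 and 0.122 FPKM in the conditioned libraries, against 0.0492, 0.0218 and 0.0850 FPKM in the control libraries, so the groups overlapped. Among genes of the table within 500 kb on either side of the members, Olfr1406, Ackr1, Cadm3, Olfr258-ps1, Olfr421-ps1, Olfr420 and Fmn2 stayed at or below 0.141 FPKM in every library, with overlapping groups.

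**Figure D4:**
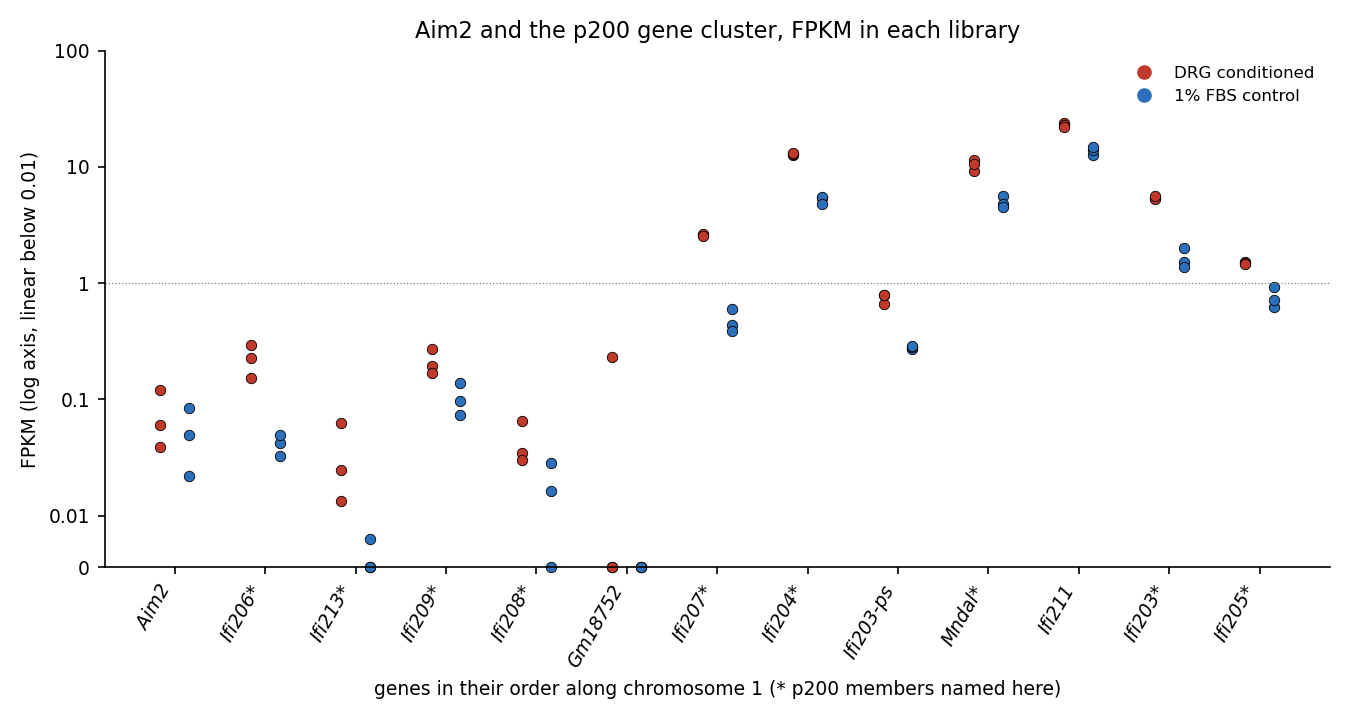
FPKM in each library (vertical axis, logarithmic above 0.01 and linear below) for Aim2 and the cluster's genes of the table in their order along chromosome 1, with DRG conditioned libraries in red at left and control libraries in blue at right of each gene. The members marked with an asterisk and Ifi211 and Ifi203-ps between them are higher in the conditioned libraries without overlap, whereas Aim2 on one flank overlaps.

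Upstream of the members stand the interferons, their receptors, kinases and transcription factors, and inhibitors that dampen this chain. Of 26 such genes listed, 18 were tested, 6 rose, 1 fell and 11 did not pass, where 4.04% of all tested genes were called higher and 2.49% lower. Stat2 averaged 37.0 ± 0.120 FPKM in the conditioned libraries and 16.6 ± 0.292 FPKM in control (log2 difference 1.11 ± 0.03, SE; limma adjusted p = 1.35e-06). Irf9 averaged 13.9 ± 0.211 FPKM in the conditioned libraries and 8.69 ± 0.378 FPKM in control (log2 difference 0.62). Irf7, a factor that amplifies interferon production, rose by 1.65, Usp18, which dampens receptor signalling, by 1.84, and Socs3, an inhibitor of cytokine receptors, by 0.65 on the log2 scale. The receptor chain Ifngr1 fell by 0.17 (limma adjusted p = 0.0373), at 14.5 ± 0.121 FPKM in the conditioned libraries and 16.5 ± 0.377 FPKM in control (SD, n = 3 each), and this call was lost whichever library was left out. The median log2 difference of the tested genes of the list was 0.10, beside 0.01 for all tested genes.

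Of 31 listed genes of cytosolic DNA sensing and inflammasomes, 27 were tested, 3 rose and 24 did not pass, where 4.04% of all tested genes were called higher. At an unadjusted p under 0.05, 6 were higher and none lower, and voom called 4 higher and none lower. The median log2 difference of the list was 0.04. Samhd1, which degrades nucleotides, averaged 13.9 ± 0.417 FPKM in the conditioned libraries and 10.8 ± 0.263 FPKM in control (log2 difference 0.33). Casp4, the caspase that senses bacterial lipopolysaccharide, averaged 2.25 ± 0.290 FPKM in the conditioned libraries and 1.36 ± 0.0908 FPKM in control (log2 difference 0.46). Enpp1, which degrades the messenger cGAMP, averaged 10.8 ± 0.596 FPKM in the conditioned libraries and 8.81 ± 0.584 FPKM in control (log2 difference 0.26; SD, n = 3 each). Without a filter on level, 1 gene of the list was called, and with 1 library left out the count ran from 1 to 3, at 1 without conditioned replicate 1 or 3 and without control replicate 2 or 3.

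Proteins reported as binding partners or targets of p200 members, such as the retinoblastoma family, the nucleolar factor UBTF and RUNX2, gave 22 tested genes of 25 listed. None rose by limma, with 1 at an unadjusted p under 0.05 and 0 by voom, and the median log2 difference was -0.02. Fos, a subunit of the AP-1 transcription factor, alone passed, where 2.49% of all tested genes were called lower, at 36.7 ± 1.04 FPKM in the conditioned libraries and 43.7 ± 2.68 FPKM in control (SD, n = 3 each). It fell by 0.24 on the log2 scale (limma adjusted p = 0.0276). With 1 library left out, this call held without control replicate 1 and was lost without any of the others. In all, 4 genes of the list were lower at an unadjusted p under 0.05.

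Outside the family, the 5 genes whose centred log2(FPKM + 1) values over the 6 libraries lay nearest to the median profile of the tested members were Nqo1, Stat2, Rnf213, Irgm2 and Gbp7, at Euclidean distances of 0.0977, 0.137, 0.159, 0.163 and 0.211. Among the members, Ifi204 lay at 0.0795 from that profile, Ifi207 at 0.212, Ifi203 at 0.237, Mndal at 0.319 and Ifi205 at 0.849. Nqo1, a quinone reductase, read 35.4, 36.1 and 38.3 FPKM in the conditioned libraries and 17.2, 15.7 and 15.1 FPKM in the control libraries. Gbp7, a guanylate-binding protein, read 6.31, 7.02 and 6.63 FPKM in the conditioned libraries and 3.27, 2.80 and 2.50 FPKM in the control libraries. Neither gene overlapped between the media. A profile over 6 libraries in 2 groups mostly reflects the difference between the groups.

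Other cells could carry p200 RNA, and their markers were set beside these values. None of the 3 macrophage and leukocyte markers tested (Cd68, Cd14 and Lyz2) passed by limma or by voom in either direction, and at an unadjusted p under 0.05 none was higher and 1 was lower. That one was Lyz2, at 1.79 ± 0.301 FPKM in the conditioned libraries and 2.68 ± 0.457 FPKM in control (SD, n = 3 each), without overlap (limma adjusted p = 0.0834). Summed FPKM of the DRG neuron markers was 16.9 to 17.9 in the conditioned libraries and 22.4 to 25.1 in control, with Tubb3 lower and the sensory gene Calca at most 0.0273 FPKM in the conditioned libraries and 0.136 FPKM in control. That of the Schwann and satellite glia markers was 2.14 to 3.39 in the conditioned libraries and 3.29 to 3.96 in control, with Sox10 at 0 in 5 of 6 libraries. That of the endothelial markers was 4.40 to 4.86 in the conditioned libraries and 5.73 to 6.52 in control, with Pecam1 at most 0.0512 FPKM in the conditioned libraries and 0.0830 FPKM in control. The neuron and endothelial sums rest mostly on 1 gene each. Tubb3 averaged 16.5 ± 0.653 FPKM in the conditioned libraries and 22.6 ± 1.20 FPKM in control, and Tek 4.50 ± 0.301 FPKM in the conditioned libraries and 5.90 ± 0.377 FPKM in control (SD, n = 3 each); both fell by limma. In the glia list, Mbp was higher in the conditioned libraries without overlap, at 0.537 ± 0.0290 FPKM against 0.420 ± 0.0931 FPKM in control, under the level for testing. The part of these cells in the members' values was not tested.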

How the data were processed

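RNA of 6 libraries was sequenced as paired-end reads from poly-A RNA, and reads were processed with CASAVA and HISAT2 2.0.5 on mm10, per the submitters' processing notes. The values are FPKM per gene, deposited by the authors with 1 column per library; the counting program, its treatment of reads that fit several genes and its use of strand are stated in no source used here. For 24413 of 24413 genes, the FPKM steps gave whole fragments within 0.01, and at most 1.08% of the authors' totals lay outside the table. The length used equalled the annotated one for 23565 genes. For the rest, the step or length was chosen to make the values whole, so wholeness is no check there. Replicates of a group differed by more than sampling noise, so none was a copy.

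FPKM were tested as log2(FPKM + 1) with limma 3.58.1 (R 4.3.3, trended and robust prior) for conditioned minus control over the genes averaging at least 1 FPKM, with Benjamini-Hochberg adjustment and a threshold of 0.05. The procedure was tested on simulated data. Voom on recovered fragments was an alternative. Gene positions are from GENCODE M21, and promoters from RefSeq. The text names every member, the annotated neighbours in the table, the called genes of each list and the 5 nearest profiles, except a few genes not reported here. The members and lists were chosen with earlier results of these data known. Intervals and floors cover counting error only.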

Additional observations from a re-analysis of the deposited data

How the results depend on the processing

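Under 15 other settings (pseudocount, filter, normalization, prior, voom, replicate block, each library left out), Ifi203, Ifi204, Ifi207 and Mndal kept their direction and stayed past the threshold. Their log2 differences ran from 1.23 to 1.74, from 1.11 to 1.29, from 1.25 to 2.45 and from 0.87 to 1.06 in that order. Ifi205 was higher under all of them and past the threshold under 12 of 16 with the main setting included, at 0.45 to 1.00. The median of all genes moved by less than 0.1 under every setting.

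The replicate numbers are shared by both groups, and no pairing is stated. Over the genes tested, same-numbered libraries did not deviate together (r = -0.0948, -0.00803 and -0.0476). These values cannot show how the libraries were prepared, or whether some genes vary with the replicate number. With the replicate block, 259 genes were higher and 131 lower, and Ifi205 had a limma adjusted p of 0.0636 at a log2 difference of 0.51. The lists gave 1 DNA sensing gene higher, 0 interferon chain genes lower and 0 binding partners or targets lower.

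Genes called numbered 265 to 426 higher and 129 to 252 lower with 1 library left out; genes lower were 165 with no low filter, 477 by voom and 502 by voom with no low filter. Leaving out 1 library gave 1 to 3 DNA sensing genes higher (1 with no low filter), 0 to 0 interferon chain genes lower and 0 to 1 binding partners or targets lower. Interferon chain genes lower were also 0 with no low filter, with no trend and by voom with no low filter. Binding partners or targets lower were 0 with no low filter and with no trend, and 2 with quantile normalization and by voom with or without the low filter. Cluster neighbours higher were 2 with no low filter, with the filter at 0.5 FPKM and by voom with no low filter, because Ifi203-ps was then tested. The cause of the other shifts was not tested. Depth limits Ifi206, Ifi208, Ifi209 and Ifi213.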
